A study of Sus scrofa with 2 samples.

Results

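The genes described here build, move or maintain cilia. They are the gene symbols of the CFAP, DNAH, DNAI, DNAAF, RSPH, TEKT, SPAG6/16/17, IFT and BBS families together with RFX2 and RFX3, matched by name alone. The name rule found 38 members among 10700 gene symbols, in a feature table of 26881 entries. Of these entries 16128 carry an identifier and no symbol, so relatives listed in that way were not analysed here. The 38 members comprised 2 RFX transcription factors, 7 genes of dynein arms, their assembly or their tethers, 5 radial spoke genes, 2 central apparatus genes, 5 genes of the doublet microtubule wall, 6 other CFAP genes, 7 genes of intraflagellar transport and 4 Bardet-Biedl genes. Below, the dynein, spoke, central apparatus and wall genes are together called the 19 axoneme genes, and the intraflagellar transport and Bardet-Biedl genes the 11 transport genes.

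The data were droplet single-cell RNA counts from the endometrium of 2 pregnant Yorkshire sows, both 3 years old and artificially inseminated, with 1 sow per library. The design text names 1 sow at day 7 of gestation, before receptivity, and 1 at day 13, during receptivity. The sample labels number the libraries 1 and 2 without a day, so no stage is assigned to either here. With 1 animal in each group, no difference between libraries can be separated from a difference between animals, and no test or p-value is given.

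Motile cilia are carried in tufts by ciliated cells of the uterine epithelium. Their core, the axoneme, is a ring of doublet microtubules around a central pair. Dynein arms slide the doublets, radial spokes and the central apparatus coordinate the beat, and tektins and related proteins lie along the doublet wall. Intraflagellar transport carries cargo along every cilium, motile or primary, and the BBSome, a complex of Bardet-Biedl proteins, moves membrane cargo. RFX transcription factors act with FOXJ1 to switch on genes for cilia.

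The libraries held 10045 and 15093 barcodes with 45388759 and 87514969 unique molecular identifiers (UMIs, the counts of captured transcripts), or medians of 3431 and 4335 per barcode. Filtering for depth and leaving out called doublets gave 8930 and 12673 cells to analyse, and 48 barcode sequences occurred in both libraries. Cells were clustered without the 38 members and clusters were named from other markers. Levels are given as CPM, the UMIs of a gene relative to all UMIs summed over the cells of a class and scaled to a total of 1000000, with exact Poisson 95% intervals that cover counting error only. A gene is called higher or lower where its CPM differed by at least 2-fold with at least 10 UMIs in the 2 groups compared. A count under 3 UMIs was set to 3 in a ratio, which then is a bound. Because class totals differ, such a ratio can lie on the other side of 1 from the CPM values.

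Ciliated cells numbered 36 in library 1, or 0.403% of its cells (exact binomial 95% interval 0.283 to 0.558), and 577 in library 2, or 4.55% (4.2 to 4.93). Other epithelial cells differed in the same direction, at 2.17% of the cells of library 1 and 34.1% of those of library 2. The ciliated shares are of all cells and do not give the frequency of ciliated cells within the epithelium. The class was named from 17 markers listed with a symbol, none of them a member, so their levels describe it. They summed to 10176 CPM in the ciliated cells of library 1 and 3385 CPM in those of library 2. In other epithelial cells the same sums were 695 and 120 CPM, in stromal fibroblasts 299 and 113 CPM, and in T or NK cells 58.8 and 85.1 CPM. TPPP3 alone gave 230 and 54.7 CPM of the sums in stromal fibroblasts. FOXJ1, the regulator of motile cilia, stood at 498 and 253 CPM in ciliated cells and at 21.1 and 3.35 CPM in other epithelial cells. CCNO, which acts in centriole amplification, had 0 and 4 UMIs in ciliated cells. The ciliated cells of the 2 libraries fell in different clusters, so what divides those clusters cannot be told apart from the library.

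Some cells with ciliated genes lay outside the ciliated class, and this bears on the results below. When the epithelial cells of library 1 were clustered alone, 22 cells of the other epithelial class, which made up 2.17% of that library's cells, formed a subcluster led by SNTN, TMEM212, DYNLRB2, ODF3B and CFAP58. These 22 cells had a median of 28203 UMIs, against 6305.5 in the 36 ciliated cells. The 22 cells had UMIs of a median of 12 of the 17 ciliated markers and 11 of the 19 axoneme genes, and the 36 cells of 12 and 12. Of the 577 ciliated cells of library 2, 355 formed a subcluster with a median of 4503 UMIs and 217 one with a median of 11849, and 2 and 3 cells fell into subclusters of other epithelial cells. Per cell, the 19 axoneme genes gave 26.2 UMIs in the 36 cells and 31.3 in the 22 cells of library 1, and 18.0 in the 355 cells and 19.6 in the 217 cells of library 2. As a share of all UMIs the same genes differed: 4088 and 865 CPM in library 1, and 4012 and 1479 CPM in library 2.

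The cells with more UMIs also carried more of the genes that led the other epithelial clusters. In library 1 the 10 leading genes of the other epithelial cluster summed to 2165 CPM in the 36 ciliated cells, 6987 CPM in the 22 cells and 8527 CPM in all other epithelial cells. These genes were picked in the cluster that holds the 22 cells, against a rest that included the 36 cells. That order in library 1 was therefore partly fixed by the choice of genes. In library 2 the 30 leading genes of the 3 main other epithelial clusters summed to 8473 CPM in the 355 cells, 57909 CPM in the 217 cells and 74207 CPM in other epithelial cells. Called doublets had been removed before this step. Whether these cells hold the RNA of more than 1 cell was not tested.

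**Figure D1:**
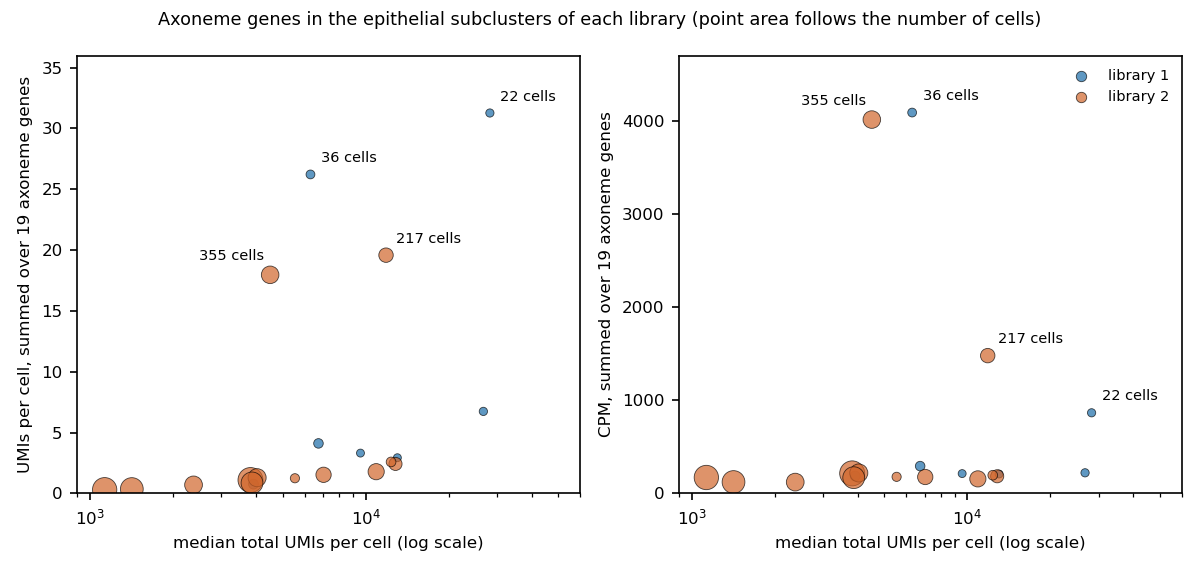
Axoneme genes in the subclusters of epithelial cells of each library, as UMIs per cell (left) and CPM (right) summed over 19 genes, against the median total UMIs per cell on a log axis; point area follows the number of cells. The 22 and 36 cells of library 1 and the 217 and 355 cells of library 2 lie above the other subclusters in both panels, and of each pair the one with more UMIs is close to the other in UMIs per cell and below it in CPM.

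Members were far higher in ciliated cells than in the other epithelial cells of the same library. In library 1, 33 of the 35 members with enough UMIs were at least 2-fold higher in ciliated cells, against 25.6% of all features measured. In library 2, 33 of 38 were higher, against 19.4% of all features. No member was lower in either library, where 6.58% and 3.6% of features were. The median log2 ratio of the members was 3.08 in library 1 and 3.98 in library 2, beside 0.58 and 0.13 over all features. The feature medians include ratios with a count under 3 set to 3. In library 1 that floor equals 13.0 CPM in ciliated and 1.00 CPM in other epithelial cells, so features absent from ciliated cells could enter above 0. Of the 35 members measured in both libraries, 31 were higher in both, against 10.6% of features. Clusters were named for ciliated markers, so these ratios describe the cells and are no test.

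The axoneme genes stood further apart than the transport genes. Their median log2 ratio was 4.08 in library 1, over 17 genes measured, and 5.70 in library 2, over 19. All of those measured were at least 2-fold higher in both libraries. The transport genes had medians of 1.91 over 10 genes and 2.08 over 11. In level, the axoneme genes summed to 4088 and 2339 CPM in ciliated cells of libraries 1 and 2, and to 406 and 174 CPM in other epithelial cells. In stromal fibroblasts they summed to 199 and 186 CPM, of which CFAP20 alone gave 107 and 103 CPM. The transport genes summed to 1451 and 2160 CPM in ciliated cells, 396 and 477 CPM in other epithelial cells and 325 and 851 CPM in stromal fibroblasts. Within the other epithelial cells of library 1, the axoneme sum was 865 CPM in the 22 cells with many UMIs and 186 to 293 CPM in the other subclusters.

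**Figure D2:**
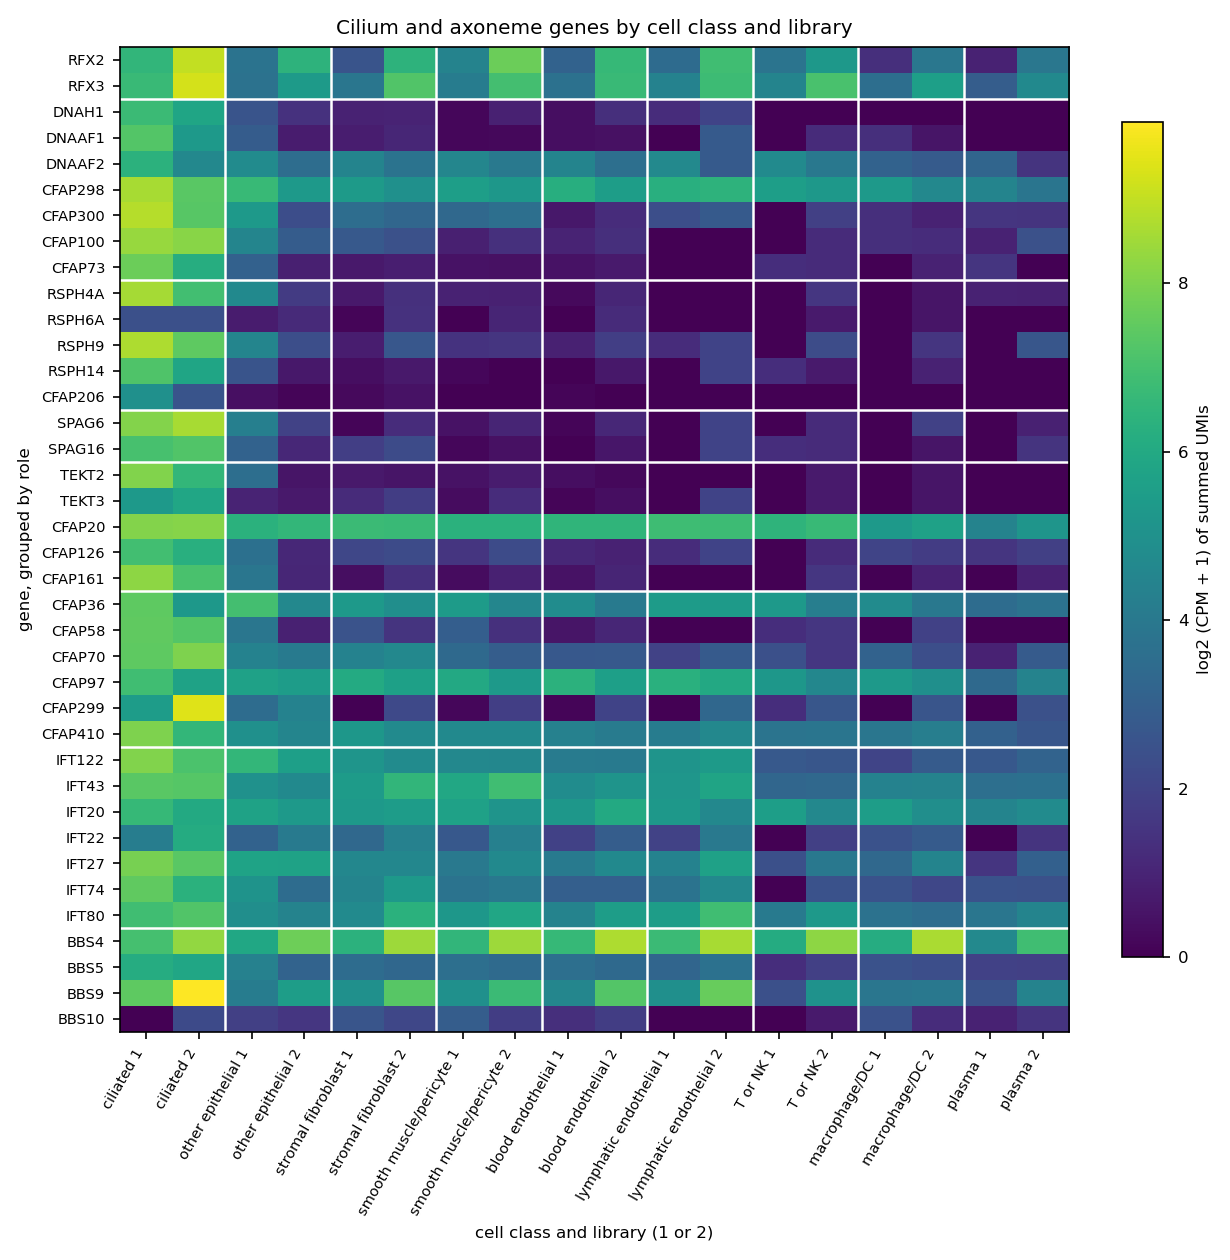
Level of each of the 38 members, as log2 (CPM + 1) of UMIs summed over cells, in 9 cell classes of library 1 and library 2; white lines separate roles and classes. The 2 ciliated columns are high for most axoneme genes and the other columns are lower, with weaker signal of several axoneme genes in other epithelial cells of library 1. CFAP20, CFAP97, IFT20 and BBS4 are among the members with signal in every class.

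Among the dynein genes, DNAH1, an inner arm heavy chain, stood at 108 CPM (70.1 to 160) in ciliated cells of library 1 and 5.02 CPM (2.81 to 8.28) in other epithelial cells. In library 2 its levels were 55.9 CPM (49.2 to 63.2) and 1.68 CPM (1.19 to 2.29), a 33.3-fold difference. DNAAF1, a cytoplasmic factor for dynein arm assembly, was at 152 and 39.7 CPM in ciliated cells and 6.36 and 0.688 CPM in other epithelial cells. DNAAF2, another assembly factor, was far less restricted, with ratios of 3.11-fold and 2.23-fold. Its level in stromal fibroblasts was 21.1 and 12.7 CPM, close to the 26.4 and 10.5 CPM of other epithelial cells. CFAP298, also needed for dynein assembly, had ratios of 3.82-fold and 4.27-fold and was found in every class. CFAP300, a partner of the assembly factors, stood at 455 and 162 CPM in ciliated cells and 39.8 and 4.04 CPM in other epithelial cells. CFAP100 and CFAP73, which tether an inner arm, were 15.3-fold and 27.6-fold higher in ciliated cells of library 1 and 44.2-fold and 87.8-fold higher in library 2.

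The radial spoke genes with enough UMIs had log2 ratios of 3.90 to 4.83 in library 1. RSPH4A, a spoke head protein, was at 381 CPM (306 to 469) and 121 CPM (111 to 131) in ciliated cells, and at 25.4 CPM (20.0 to 31.8) and 2.32 CPM (1.74 to 3.03) in other epithelial cells. RSPH9, another spoke head protein, was at 411 and 176 CPM against 22.1 and 4.21 CPM. RSPH14 was at 143 and 55.2 CPM against 5.02 and 0.559 CPM. CFAP206, which acts at the base of a spoke, had 7 and 23 UMIs in ciliated cells and 1 and 2 UMIs in other epithelial cells, with a log2 interval of 3.86 to 9.0 for the ratio in library 2. RSPH6A was sparse. It had 1 and 20 UMIs in ciliated cells, and in library 2 was 3.52-fold higher than in other epithelial cells (log2 interval 0.92 to 2.69).

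Both central apparatus genes were low outside ciliated cells. SPAG6 was at 273 CPM (210 to 349) and 395 CPM (377 to 414) in ciliated cells and at 18.4 CPM (13.9 to 24) and 2.84 CPM (2.19 to 3.61) in other epithelial cells. In stromal fibroblasts it had 1 UMI in library 1 and 14 in library 2. SPAG16 was at 130 and 149 CPM in ciliated cells, 16.9-fold and 128-fold higher than in other epithelial cells.

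Genes of the doublet wall held the largest ratio of any member in library 2. TEKT2, a tektin filament protein, was at 260 CPM (198 to 334) and 93.4 CPM (84.7 to 103) in ciliated cells against 11 CPM (7.60 to 15.5) and 0.473 CPM (0.236 to 0.846) in other epithelial cells, or 197-fold in library 2. TEKT3 and CFAP126 were 95.8-fold and 64.6-fold higher in ciliated cells of library 2. CFAP161, a protein inside the doublet, was at 299 and 134 CPM against 14.1 and 1.12 CPM. CFAP20, a wall protein of both motile and primary cilia, differed from the rest of its role. It was 3.37-fold and 2.88-fold higher in ciliated cells, and it stood at 107 and 103 CPM in stromal fibroblasts and at 79.7 and 94.9 CPM in other epithelial cells.

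The 6 other CFAP genes were mixed. CFAP58 was at 178 and 152 CPM in ciliated cells and at 13.7 and 0.860 CPM in other epithelial cells, or 12.9-fold and 177-fold higher. CFAP70 was 8.62-fold and 16.2-fold higher, and CFAP410 was 8.48-fold and 4.30-fold higher. CFAP299 was 4.17-fold higher on 10 UMIs in library 1 and 34.0-fold higher on 3111 UMIs in library 2. CFAP36 and CFAP97 had little contrast. CFAP36 was at 173 and 38.6 CPM in ciliated cells and 123 and 23.7 CPM in other epithelial cells, under 2-fold in both libraries. CFAP97 was at 117 and 52.0 CPM against 49.5 and 44.1 CPM, and in library 2 its log2 ratio was 0.24 (0.03 to 0.44).

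The intraflagellar transport genes were higher by a few fold. IFT122, of the complex that returns cargo to the cell body, was at 264 CPM (202 to 339) and 136 CPM (125 to 147) in ciliated cells and at 92.7 CPM (82.1 to 104) and 47.0 CPM (44.3 to 49.9) in other epithelial cells. IFT43, of the same complex, was 5.23-fold and 6.21-fold higher in ciliated cells. Of the complex that carries cargo outward, IFT27 was 4.50-fold and 3.24-fold higher, IFT74 5.54-fold and 7.88-fold, and IFT80 4.01-fold and 7.19-fold. IFT22 was 2.25-fold higher in library 1, on 4 UMIs with a log2 interval of -0.82 to 2.72, and 4.22-fold higher in library 2. IFT20, which also acts at the Golgi, was at 99.6 and 64.7 CPM against 50.9 and 39.0 CPM, under 2-fold in both libraries.

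Bardet-Biedl genes did not move as 1 group. BBS9, a BBSome subunit, was at 173 CPM (124 to 236) and 967 CPM (938 to 995) in ciliated cells and at 17.1 CPM (12.7 to 22.4) and 44.8 CPM (42.1 to 47.6) in other epithelial cells. BBS5 was 3.51-fold and 7.14-fold higher in ciliated cells. BBS4, a subunit that also works at centriolar satellites, was 2.14-fold and 1.47-fold higher. Its 313 CPM in ciliated cells of library 2 stood below its 356 CPM in stromal fibroblasts and 414 CPM in blood endothelial cells. BBS10, a chaperonin-like factor for BBSome assembly, had 0 and 17 UMIs in ciliated cells; the 0 in library 1 allows up to 13.0 CPM.

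RFX2 was at 90.9 CPM (56.3 to 139) in ciliated cells of library 1 and 511 CPM (491 to 532) in those of library 2. In other epithelial cells it was at 12.7 CPM (9.0 to 17.5) and 84.5 CPM (80.8 to 88.3), so ciliated cells were 7.15-fold and 6.05-fold higher. RFX3 was at 104 CPM (66.6 to 155) and 625 CPM (602 to 648) in ciliated cells, 8.39-fold and 15.3-fold higher than in other epithelial cells. Both factors were thus higher in ciliated than in other epithelial cells of each library, and both differed between the libraries in either class.

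**Figure D3:**
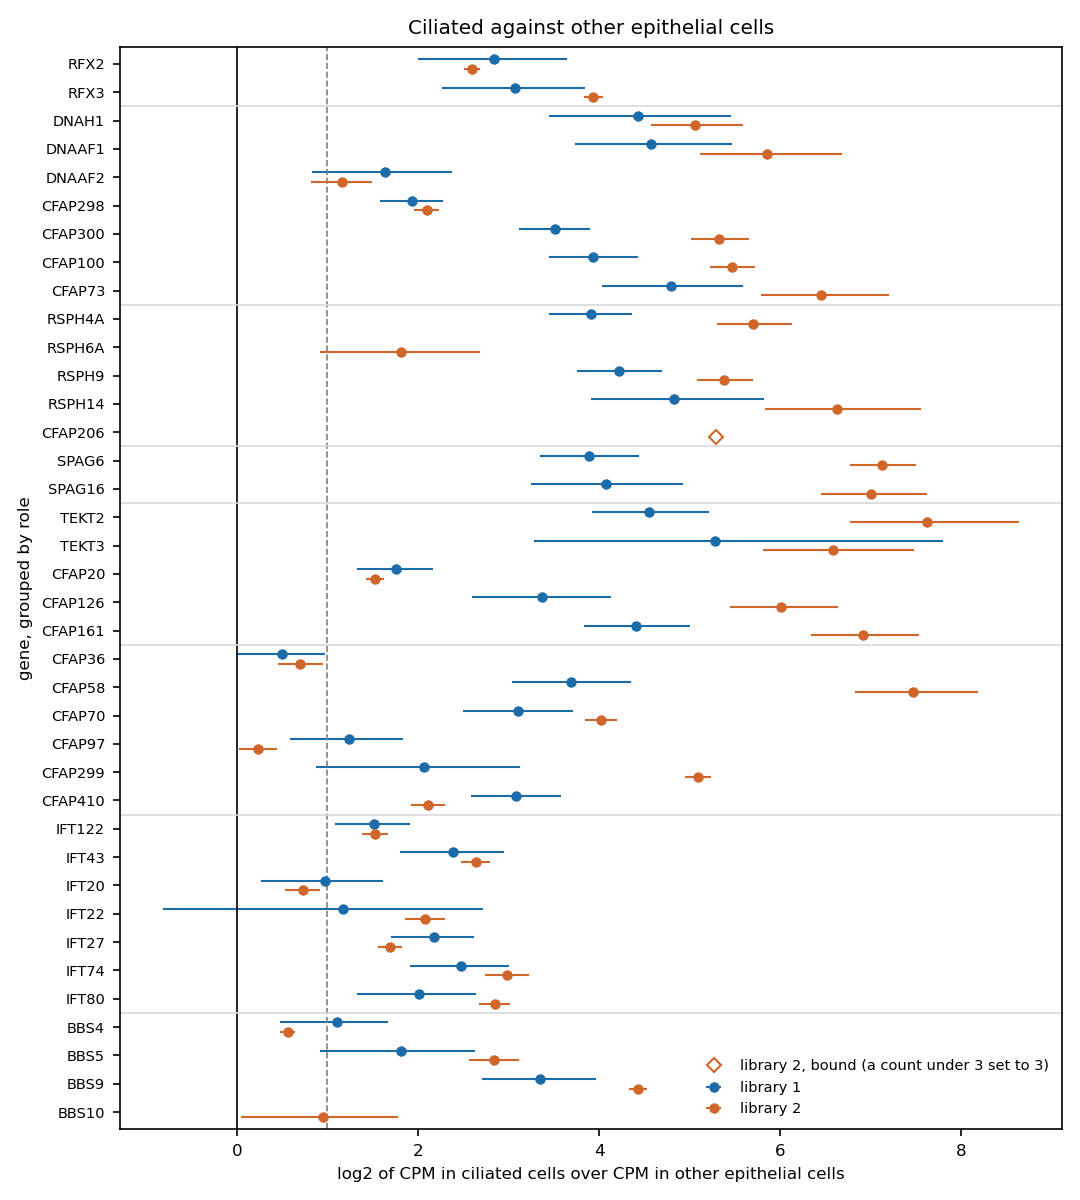
Log2 ratio of CPM in ciliated cells over CPM in other epithelial cells for each member in library 1 and library 2, with exact conditional binomial 95% intervals for counting error; the dashed line marks 2-fold, and an open diamond a ratio with a count under 3 set to 3. Axoneme genes lie between 1.64 and 5.28 in library 1 and between 1.16 and 7.63 in library 2, and CFAP36, CFAP97, IFT20, BBS4 and BBS10 lie below 2-fold in library 2.

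The ratios in library 1 depend on where the 22 cells with many UMIs are placed. Of the other epithelial cells of library 1, 44 had UMIs of at least 3 ciliated markers. With those cells left out, the median log2 ratio of members in library 1 was 3.91. With every epithelial cell of at least 3 markers counted as ciliated, it was 1.93 and 23 of 35 members were higher, against 9.84% of features. Against the non-epithelial cells, 34 of 37 members in library 1 and 32 of 38 in library 2 were higher in ciliated cells, where 14.7% and 20% of features were. Other epithelial cells exceeded non-epithelial cells in 19 of 36 members in library 1, of which 13 were axoneme genes, and in 4 of 37 members in library 2. The feature shares for these were 13.9% and 14.7%.

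Single cells showed the same division at equal depth. Each cell of at least 1000 UMIs was thinned to 1000 UMIs, which left out 5 ciliated cells in each library, 24 and 680 other epithelial cells and 101 and 79 T or NK cells. Ciliated cells then had UMIs of a median of 4 of the 19 axoneme genes in library 1 and 2 in library 2, where without thinning the medians were 12 and 9. The thinned median of other epithelial cells and of T or NK cells was 0 in both libraries. UMIs of at least 3 axoneme genes were found in 67.7% of thinned ciliated cells of library 1 (exact binomial interval 48.6 to 83.3) and in 49.0% of those of library 2 (44.8 to 53.1). For other epithelial cells the shares were 2.35% (0.645 to 5.91) and 0.137% (0.0446 to 0.320). T or NK cells, which lack motile cilia, gave 0 of 376 and 0 of 753 cells, which, with 3 cells as the limit for a count of 0, allows shares of up to 0.798% and 0.398%.

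Other genes of the cilium, from a list of 119 names of which 64 had a symbol, were counted in the same way after 8 naming markers were left out. Of 54 measured, 42 were higher in ciliated than in other epithelial cells of library 1 and 42 in library 2, and none was lower in either, beside 25.6% and 19.4% of all features higher and 6.58% and 3.6% lower. Docking and dynein regulatory complex genes and other motility genes were all higher, 4 of 4 and 9 of 9 in each library. The 4 were CCDC114 of docking and CCDC65, GAS8 and IQCG of the dynein regulatory complex. CCDC39, a ruler gene, was a naming marker and was not counted. GAS8 stood at 195 and 180 CPM in ciliated cells and 19.4 and 12.3 CPM in other epithelial cells. Transition zone genes, which gate the base of every cilium, were higher in 13 of 14 and 12 of 14. Motors and partners of transport were higher in 7 of 9 and 6 of 9, and KIF3A, a subunit of the outward motor, was at 130 and 216 CPM against 129 and 202 CPM. Contrast was weaker in the other lists, with 4 of 9 and 6 of 9 transcription and multiciliogenesis genes higher, 2 of 4 partners of Bardet-Biedl proteins in each library and 3 of 5 tubulins and their modifiers in each. These genes could enter the clustering, unlike the members.

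Between the libraries, 6 members were at least 2-fold higher and 15 lower in the ciliated cells of library 2, where 14.5% and 19.1% of features were. Under TMM scaling, which sets the typical gene near equality, 9 were higher and 6 lower, against 23.2% and 10.2% of features, and the median log2 ratio over all features moved to 0.01. Without that scaling the 6 higher were CFAP299, RFX3, RFX2, BBS9, IFT22 and BBS4. The lower included 11 axoneme genes, among them DNAAF1 at 152 and 39.7 CPM in libraries 1 and 2, RSPH4A at 381 and 121 CPM, and TEKT2 at 260 and 93.4 CPM. The median log2 ratio of the members was -0.82, beside -0.48 over all features. The 36 ciliated cells of library 1 held 230943 UMIs and the 577 of library 2 held 4561760, so the intervals are set by library 1.

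The cells with more UMIs bear on this comparison. The subclusters with the highest CPM of ciliated markers were the same 36 cells in library 1 and the 355 cells in library 2, although per cell the 217 cells had 27.4 marker UMIs and the 355 cells 26.6. These subclusters summed to 4088 and 4012 CPM over the 19 axoneme genes. Compared between these cells alone, 11 of 37 members were higher and 5 lower in library 2, against 17.7% and 18.1% of features, and the median log2 ratio was -0.21 beside -0.22 over all features. The 5 lower were DNAAF1, DNAAF2, CFAP206, CFAP36 and CFAP97. RSPH9 was at 411 and 340 CPM, CFAP161 at 299 and 237 CPM and CFAP126 at 121 and 128 CPM in libraries 1 and 2. With cells of at least 3 ciliated markers taken as ciliated in both libraries, 15 members were higher and 1 lower, against 27.2% and 17.1% of features, and the median log2 ratio turned to 0.63. Under that definition CFAP300, CFAP73, RSPH9, RSPH14, TEKT2 and CFAP161 changed sign among the axoneme genes, while DNAAF1, DNAAF2, CFAP298 and RSPH4A stayed below 0. Over all settings computed, the highest log2 ratio was -0.076 for DNAAF1, -0.89 for DNAAF2, -0.26 for CFAP298 and -0.013 for RSPH4A. DNAAF1 and RSPH4A thus came near 0 in at least 1 setting.

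**Figure D4:**
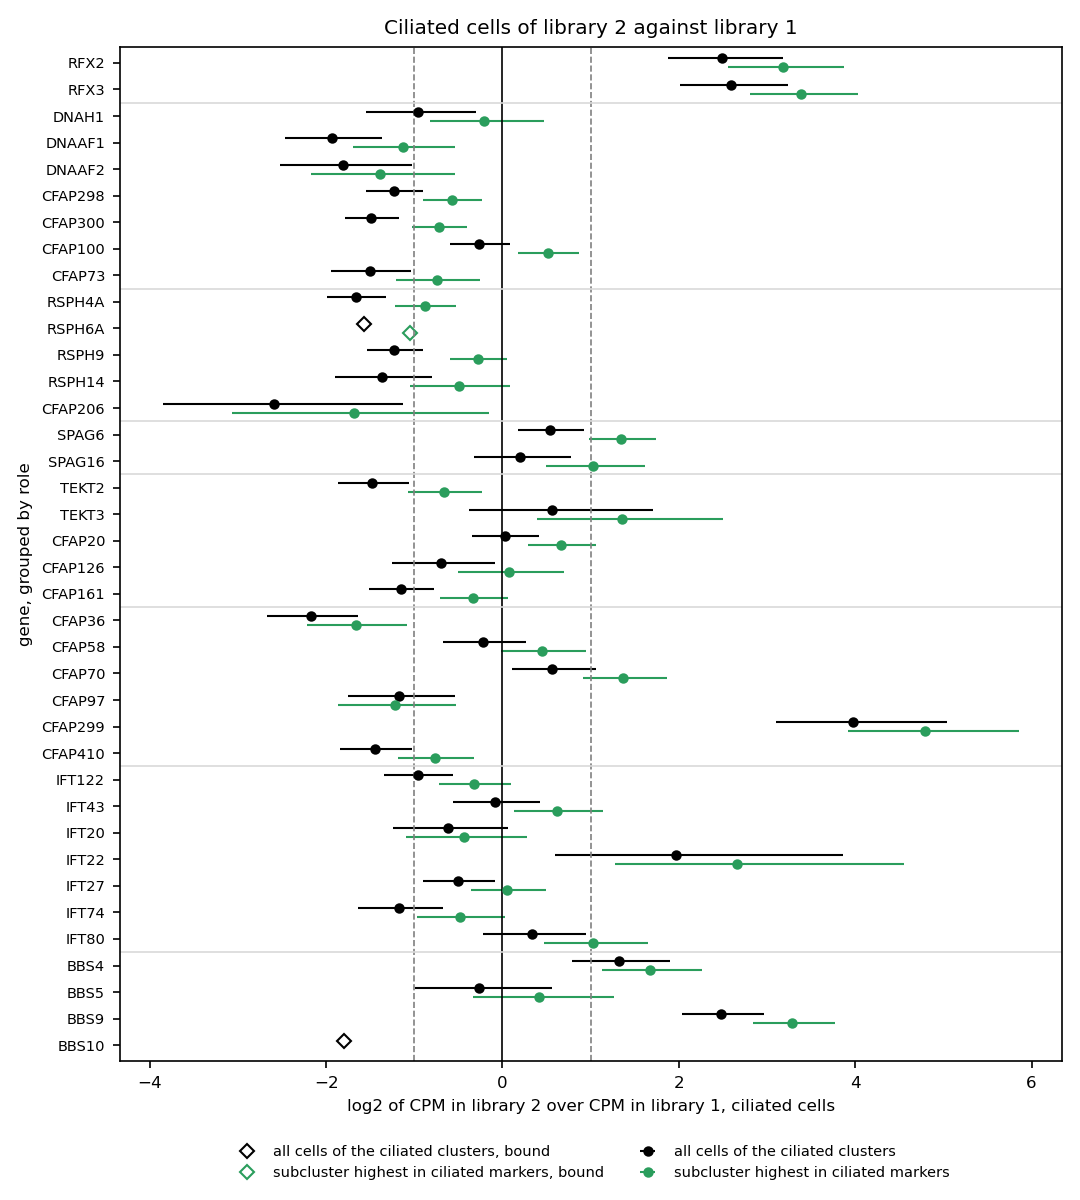
Log2 ratio of CPM in library 2 over library 1 for each member, in all cells of the ciliated clusters (black, 36 and 577 cells) and in the subclusters highest in ciliated markers (green, 36 and 355 cells), with exact conditional binomial 95% intervals; dashed lines mark 2-fold and open diamonds a count under 3 set to 3. RFX2, RFX3, CFAP299, IFT22, BBS4 and BBS9 lie to the right of 2-fold in both sets, and most axoneme genes lie nearer to 0 in the green set.

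For 5 named members, library 2 was at least 2-fold higher under each of the 16 settings computed for this comparison, and for CFAP36 it was at least 2-fold lower under each. Not all of these settings are separate checks. Resolutions of 0.5 and 2.0, changed count minimums and changes to other epithelial cells alone left the ciliated cells and their UMIs as they were. Under those settings the ratios could not change. The members that were higher were RFX2, RFX3, CFAP299, BBS4 and BBS9. These were the 5 named for the highest ratio between libraries, and CFAP36 was among those named for the lowest. They were thus picked on the ratio described here, and the share of all features that kept 2-fold over the settings is not given. CFAP299 was at 43.3 CPM (20.8 to 79.6) in ciliated cells of library 1 and 682 CPM (658 to 706) in those of library 2, a log2 ratio of 3.98 (3.10 to 5.04) that ranged from 3.35 to 4.80 over the settings. BBS9 had a log2 ratio of 2.48 (2.03 to 2.97), RFX3 of 2.59 (2.01 to 3.23) and RFX2 of 2.49 (1.88 to 3.19). CFAP36 was 4.49-fold lower in library 2, at log2 -2.17 (-2.67 to -1.63), with a range of -2.20 to -1.40.

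These differences were not limited to ciliated cells. There were 9 classes with at least 30 cells in both libraries, and RFX2, RFX3 and BBS4 were at least 2-fold higher in library 2 in all 9. In several classes different clusters held most of the cells of each library: clusters 0 and 9 against 24 and 25 for stromal fibroblasts, 3 and 5 against 21 and 28 for smooth muscle or pericytes, 1 and 15 against 12 and 23 for blood endothelium, and 6 against 26 and 27 for T or NK cells. Macrophage, lymphatic endothelial and plasma cells each lay in 1 cluster shared by both libraries. Of the 15 members measured in every class these were 3, where 6.64% of features were higher in all. In stromal fibroblasts RFX2 stood at 4.91 and 85.2 CPM, 17.3-fold apart, and RFX3 stood at 13.7 and 147 CPM, 10.7-fold apart. BBS9 was higher in 8 of 9 classes. CFAP299 was measured in 6 classes and higher in 4 of them, and in stromal fibroblasts its 0 and 36 UMIs gave at least 11.6-fold. Both were named for a high ratio between libraries in ciliated cells. The share of features higher in as many classes is not given. Class by class, from 14.5% of features in ciliated cells to 27.7% in stromal fibroblasts were higher in library 2. CFAP20 was within 2-fold in all 9 classes.

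A pair of other gene lists also differed between the libraries in all 9 classes, in opposite directions. A list of 21 genes known for very long introns, 18 of them measured in ciliated cells, had median log2 ratios of library 2 over library 1 between 2.05, in ciliated cells, and 3.15, in stromal fibroblasts. Ribosomal protein genes had medians between -2.19 and -0.83 over the same 9 classes, with -1.26 in ciliated cells. The part of these library-wide shifts in the levels of RFX2, RFX3, BBS4, BBS9 and CFAP299 was not tested.

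**Figure D5:**
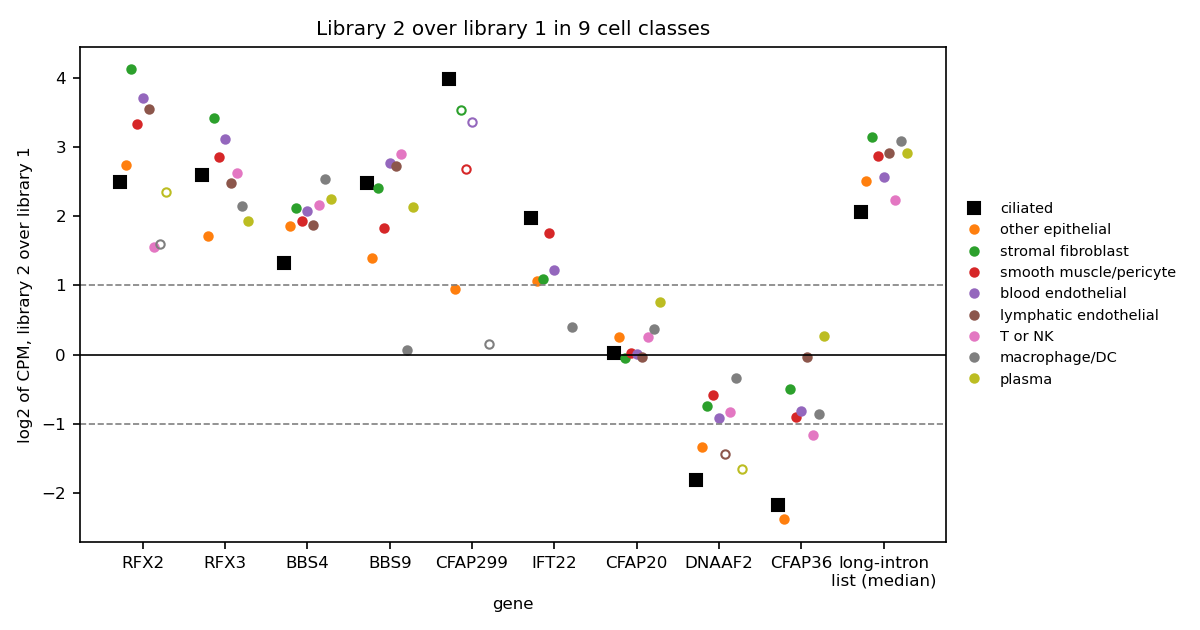
Log2 ratio of CPM in library 2 over library 1 for 9 members and for the median of the long-intron list, in each of 9 cell classes (black squares, ciliated cells; open points, a count under 3 set to 3); genes under 10 UMIs in a class are not drawn. RFX2, RFX3 and BBS4 are above the 2-fold line in every class shown, as is the long-intron list, and CFAP20 lies near 0.

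Other epithelial cells lay in cluster 13 in library 1 and, but for 7 cells, in clusters 17 to 20 in library 2. In this class 5 members were higher and 19 lower in library 2, where 23.2% of features were higher and 23.2% lower. Of the lower, 15 were axoneme genes. CFAP161 was at 14.1 and 1.12 CPM in libraries 1 and 2, and TEKT2 at 11 and 0.473 CPM. The 22 cells of library 1 held 688 of the 1214 axoneme UMIs of its other epithelial cells, on 795346 of 2987572 UMIs in all. Other epithelial cells of library 1 also held subclusters of 55 and 63 cells led by genes of dividing cells such as CENPF and AURKB. The part of either set in the difference between libraries was not tested beyond these values.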

How the data were processed

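Endometrial cells of 2 sows were analysed as 1 library each. The deposited matrices hold UMI counts per gene and barcode, whole numbers without normalization, written by Cell Ranger 6.1.0 per the file headers, while the submitters' processing notes name version 2.1.1. For the genome build, the annotation and the counting of intronic reads, the sources used here give nothing. Libraries 1 and 2 held 45388759 and 87514969 UMIs, and intervals cover counting error only.

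The cell filter was 500 UMIs and 200 genes. No mitochondrial gene name is listed, so that share could not be used. Scrublet, run per library through scanpy 1.11.5, marked doublets, which were left out. Both libraries were clustered together on 2000 variable genes without the members (30 components, 15 neighbours, Leiden resolution 1), giving 29 clusters, of which 26 were named from marker lists. Of 31 ciliated markers, 17 had a symbol. UMIs were summed per class and library and divided by the class total (CPM), with intervals from scipy 1.17.1. Thinning drew 1000 UMIs per cell. Scripts were tested on simulated data.

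Members were named by this rule: in each role the 3 with the highest CPM in ciliated cells; the 5 highest and 5 lowest ratios between libraries and the 5 lowest ratios of ciliated over other epithelial cells, from 10 UMIs; the 5 highest in non-ciliated epithelial, stromal and immune cells; and RFX2 and RFX3. The rule named 29 of the 38; DNAH1, RSPH6A, CFAP206, TEKT3, CFAP126, CFAP58, IFT22, IFT74 and IFT80 were added after their values were seen, so that members outside the rule are accounted for. Members and lists were chosen with earlier results of these data known. Alternatives covered the cell filter, doublets, clustering, the definition of ciliated cells, cell weighting, depth, TMM scaling (edgeR 4.0.16), the count minimum and the size counted.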

Additional observations from a re-analysis of the deposited data

How the results depend on the processing

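With 1 library per group there is no replicate spread, and the 36 ciliated cells of library 1 set the precision of every comparison that uses them. A value was taken as moved where it left the counting interval, or where a count changed by over 1.5 times. Of the main counts, medians and shares recomputed under the alternatives, 117 kept their value in this sense, 14 moved and 1 reversed. Over all values recomputed, single members included, 1070 kept their value, 252 moved and 8 reversed. Of these, 54 moved and 7 reversed with cells of at least 3 ciliated markers taken as ciliated. With the subcluster highest in ciliated markers 43 moved, and with each cell thinned to 1000 UMIs 38 moved and 1 reversed. Another 33 moved with cells weighted equally and 29 under TMM scaling. Equal weighting moved no main count or median. No value moved with members allowed among the clustering genes, with the resolution at 0.5 or with each library clustered alone. At resolution 0.5 the ciliated and other epithelial classes had the same numbers of cells and UMIs as in the main setting. The tallies of kept values include settings that left the cells of a comparison unchanged, where its ratios could not move.

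With cells of at least 3 ciliated markers taken as ciliated, ciliated shares were 0.873% and 5.32%, the median log2 ratio of ciliated over other epithelial cells in library 1 was 1.93, and 15 members were higher and 1 lower in library 2. The median ratio between libraries reversed to 0.63, as did CFAP300 at 0.014, CFAP73 at 0.42, RSPH9 at 0.54, RSPH14 at 0.57, TEKT2 at 0.34, CFAP161 at 0.63 and CFAP410 at 0.18. This set takes in the 22 cells of high UMI count in library 1. With each cell thinned to 1000 UMIs, 13 members were higher in ciliated cells of library 1 and 8 were lower in library 2, on fewer genes measured, and TEKT2 stood at 0.25 between libraries. The lower members numbered 6 under TMM scaling and 2 at 4-fold.

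Alternatives chosen after seeing the data were the subcluster highest in ciliated markers, which gave 11 higher and 5 lower members in library 2; other epithelial cells without those of at least 3 ciliated markers, with a median of 3.91 in library 1; other epithelial cells without the cluster of lowest UMI count; and clustering of each library alone under a stricter filter or with called doublets kept. With doublets kept the ciliated share of library 2 was 5.77% in either clustering. Clustered together, the stricter filter of 1000 UMIs and 500 genes, and doublets kept, left 0 ciliated cells in library 1, so these gave no library 1 ratio; clustered alone, they gave 31 and 47. Beyond what these constructions show, the cause of each change was not tested. No paired analysis was possible because each group is 1 library.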
